A study of Homo sapiens with 8 samples.

Results

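Autophagy is described here through 10 genes of its core machinery, SQSTM1, MAP1LC3B, GABARAPL1, GABARAPL2, ULK1, BECN1, ATG5, ATG7, ATG12 and WIPI1. They were taken by symbol from a table of raw read counts for 23368 gene symbols, and all 10 had a row and passed the filter on low counts. All libraries held total RNA of MDA-MB231 (MDA-MB-231), a human cell line from a breast cancer that lacks oestrogen and progesterone receptors, grown in DMEM with fetal calf serum. The cells had been transfected with a control siRNA (siC) or with siE1, siE2 or siE3, which are 3 siRNAs against ESRRA, the mRNA of the orphan nuclear receptor ERRα. Each siRNA had 2 libraries, so that every mean ± SD below has n = 2, and cells of all 4 groups were transfected with the reagent interferin. The labels give no siRNA dose and no time after transfection.

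Macroautophagy encloses cytoplasm in a double membrane, the autophagosome, and delivers it to the lysosome. The ULK1 kinase complex starts the process, and a lipid kinase complex built around BECN1 then makes phosphatidylinositol 3-phosphate, which WIPI proteins bind. A ubiquitin-like reaction catalysed by ATG7 joins ATG12 to ATG5, and that conjugate helps to attach the Atg8 proteins (the LC3 and GABARAP families) to lipid. Receptors such as SQSTM1 (p62) bind both ubiquitinated cargo and Atg8 proteins, and are degraded with the cargo. These mRNA counts do not measure the flow of material through that route.

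Total counts ran from 21835995 to 25880548 per library. ESRRA, the target, stood at 63.9 ± 1.31 CPM under siC (CPM is a read count scaled to library size, with TMM factors) and at 10.4 ± 0.113, 8.06 ± 1.14 and 8.43 ± 0.171 CPM under siE1, siE2 and siE3. VIM, CD44 and AXL, which mark this line, had at least 13477 counts in every library, and ESR1, PGR and CDH1 at most 3. ERBB2 (52.0 to 67.1 CPM) and EPCAM (9.11 to 12.7 CPM) were measurable. The blood markers CD3E and HBB and the fibroblast marker DCN had 0 counts in every library, PTPRC and COL1A2 at most 3, and CDH5 and VWF at most 21. The fibroblast marker COL1A1 was present in every library, at 5.97 ± 0.923 CPM with siC, 4.58 ± 0.668 with siE1, 9.31 ± 0.899 with siE2 and 7.08 ± 0.590 with siE3, and of the 3 comparisons with siC only that of siE2 was called (0.64, edgeR adjusted p = 0.0015). The summed level of 11 markers of blood, fibroblasts and endothelium ran from 7.67 to 8.26 CPM with siC, 10.3 to 11.5 with siE1, 13.4 to 15.4 with siE2 and 10.1 to 11.5 with siE3. Of the 11, 5 were tested and 3 rose in the average of the siRNAs (PDGFRB, 0.776 to 4.36 CPM over the libraries, and CD14 and PECAM1, both below 1 CPM), and their part in the results was not tested. Nothing in the labels says that the 2 libraries of a group came from separate cultures, and the spread behind each p-value may therefore be technical. In these bulk samples fewer cells with an mRNA and less of it per cell cannot be told apart.

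Promoter windows are shown for ULK1 and SQSTM1, which rose with each siRNA, and for MAP1LC3B, which rose with siE1 and siE3. Each holds 250 bases before and 50 after a transcription start, from RefSeq on GRCh38.p14. Where RefSeq had several starts (SQSTM1 and ATG5), the window nearest to the start of the principal GENCODE v29 transcript was taken. The RefSeq start lay 536 bases from that GENCODE start for MAP1LC3B, 384 for BECN1, 354 for ATG5 and 293 for ATG12. The windows of these genes therefore do not contain the GENCODE start. The ULK1 window is chr12:131894372-131894671 on the plus strand, that of SQSTM1 chr5:179820655-179820954 on the plus strand and that of MAP1LC3B chr16:87392086-87392385 on the plus strand. Capitals mark letters that match a searched motif.
ULK1: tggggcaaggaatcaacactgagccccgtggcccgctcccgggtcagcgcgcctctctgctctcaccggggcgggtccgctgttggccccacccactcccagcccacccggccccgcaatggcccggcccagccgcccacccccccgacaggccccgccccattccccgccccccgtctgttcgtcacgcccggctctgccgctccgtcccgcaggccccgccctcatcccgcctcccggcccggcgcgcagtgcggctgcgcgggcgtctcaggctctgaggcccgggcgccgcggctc
SQSTM1: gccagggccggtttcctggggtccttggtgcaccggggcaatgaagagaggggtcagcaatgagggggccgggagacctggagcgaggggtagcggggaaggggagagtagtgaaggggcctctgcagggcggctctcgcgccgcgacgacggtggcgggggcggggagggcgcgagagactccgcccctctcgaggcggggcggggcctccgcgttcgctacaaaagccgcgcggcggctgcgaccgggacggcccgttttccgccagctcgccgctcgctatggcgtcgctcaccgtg
MAP1LC3B: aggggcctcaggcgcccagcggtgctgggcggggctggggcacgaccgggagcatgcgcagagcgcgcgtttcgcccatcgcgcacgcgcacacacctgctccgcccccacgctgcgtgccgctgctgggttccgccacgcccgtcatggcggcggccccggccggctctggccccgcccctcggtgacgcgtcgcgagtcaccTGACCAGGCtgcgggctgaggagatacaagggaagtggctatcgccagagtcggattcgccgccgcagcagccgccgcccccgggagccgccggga

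Of the 10 members' windows, 0 held AAGGTCA, the core of the half-site that ERR proteins bind, on either strand, against 3.92% of all 35116 windows of that length. The palindrome CACGTG, at the centre of sites for the autophagy and lysosome regulators TFEB, TFE3 and MITF, was in 0 of 10, against 7.26%. TGACNNNGC, the core of the antioxidant response element that NRF2 binds, was in 1 of 10, against 13.3%. This is the match in capitals in the MAP1LC3B window, at position -46 from the RefSeq start of that window. Another SQSTM1 window, at a start 14366 bases from that of the principal transcript, held TGACCTT, the reverse complement of AAGGTCA. This match was at position -204 from its own start. CCAAT was in 2 of 10, those of BECN1 and WIPI1, against 34.6%. The other ATG5 window, at a start 9525 bases from that of the principal transcript, held its reverse complement ATTGG at position -134. All motifs were searched on both strands. A match is a description of letters, and its absence says only that the letters are not in this window.

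More members rose than fell with each siRNA, but the members were chosen with earlier results of these data known. With siE1, 6 of 10 rose and 1 fell (edgeR adjusted p below 0.05), where 24.5% of the 13395 genes tested rose and 25.8% fell (50.3% together). With siE2, 5 rose and 3 fell, against 27.9% and 28.5% of all genes (56.4%). With siE3, 3 rose and 1 fell, not far from the 21.3% and 20.8% of all genes (42.1%). In the average of the 3 siRNAs 7 rose and 2 fell, against 23.4% and 27.7% (51.1%). The members' median log2 fold changes were 0.23, 0.22 and 0.0999 with siE1, siE2 and siE3, and 0.24 in the average, beside medians of all genes of -0.0085, 0.0056, -0.0018 and -0.013. ULK1 and SQSTM1 rose with all 3 siRNAs, as 8.73% of all genes did, and ATG5 fell with all 3, as 7.42% did. Each of the 10 was called with at least 1 siRNA, as 78.8% of all genes were, and 0 were called in opposite directions by different siRNAs, against 10.7% of all genes. The 3 comparisons share the siC libraries.

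**Figure D1:**
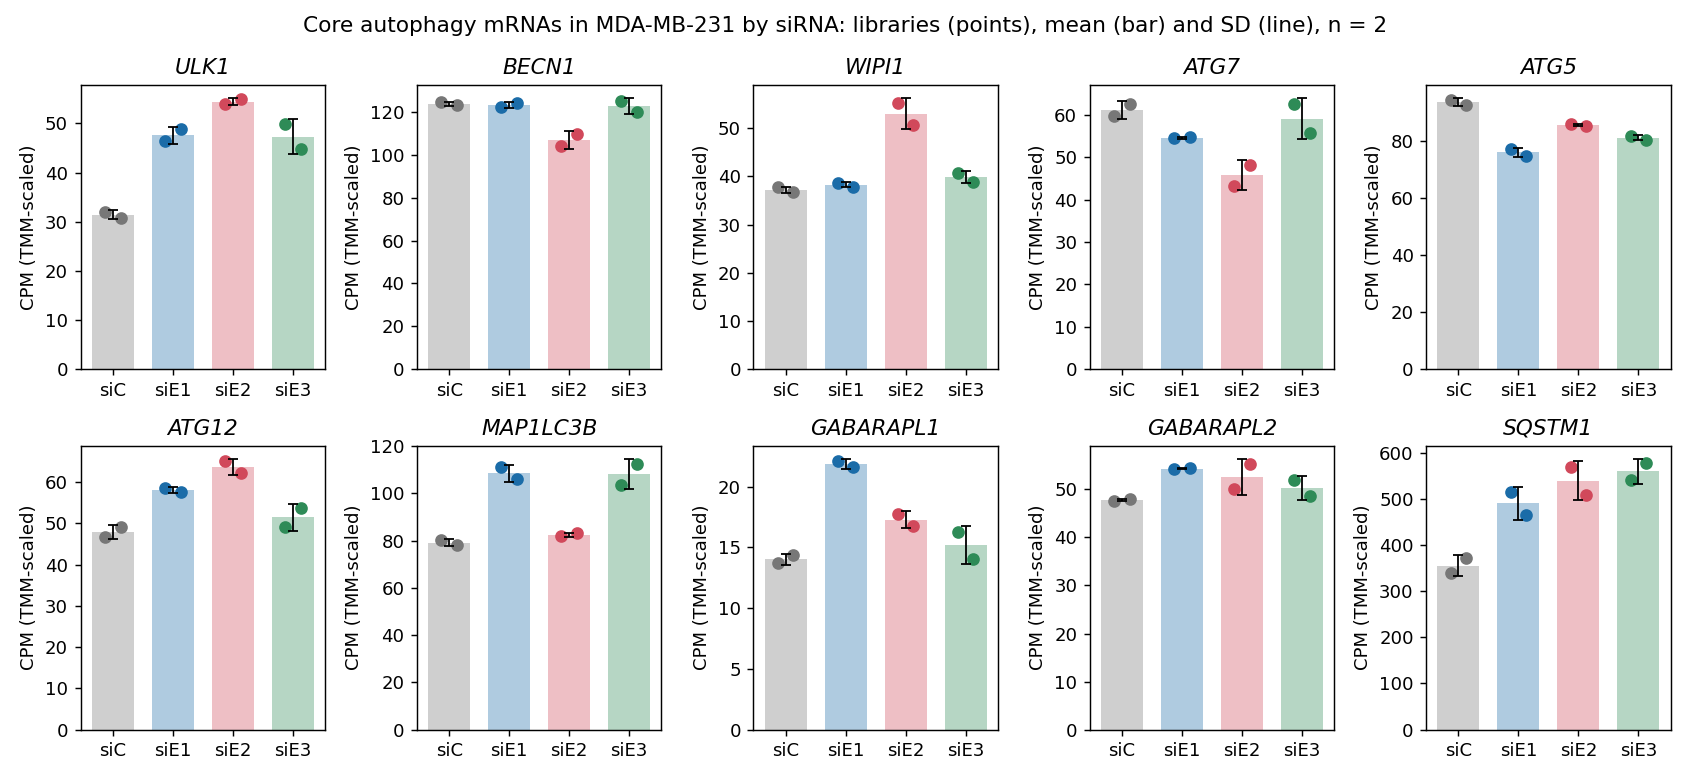
CPM of the 10 core autophagy mRNAs (vertical axes, linear from 0, a scale per gene) under siC, siE1, siE2 and siE3; points are the 2 libraries, bars the mean and lines the SD. ULK1, SQSTM1, MAP1LC3B, GABARAPL2 and WIPI1 lie above siC in all 6 siRNA libraries, as 15.1% of all genes tested do. ATG5 lies below it in all 6, as 15.4% do. WIPI1 reaches 53.0 ± 3.22 CPM with siE2 and lies just above siC with siE1 and siE3.

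Divided by the length of the principal GENCODE v29 transcript, SQSTM1 was the most abundant member in siC, at 119 CPM per kilobase. BECN1 (58.6), GABARAPL2 (47.7), MAP1LC3B (29.5) and ATG5 (29.1) followed on the same scale, the last pair differing by less than the MAP1LC3B SD of 0.537. WIPI1 stood at 20.3, ATG7 at 12.3, ATG12 at 11.1, GABARAPL1 at 7.17 and ULK1 at 5.91 CPM per kilobase. The sources used here do not name the annotation behind the counts, and these levels depend on the transcript chosen.

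ULK1, the kinase that starts autophagosome formation, was higher with each siRNA. The siC libraries had 32.0 and 30.7 CPM, those of siE1 46.4 and 48.8, those of siE2 53.9 and 54.9 and those of siE3 49.8 and 44.7. Every siRNA library lay above both siC libraries, as in 15.1% of all genes tested, and the siE2 pair lay above all the others. The log2 fold changes were 0.60 (SE 0.0687, edgeR adjusted p = 3.4e-06) with siE1, 0.79 (SE 0.0682, edgeR adjusted p = 1.2e-07) with siE2 and 0.59 (SE 0.0691, edgeR adjusted p = 6.1e-06) with siE3, or 1.52-, 1.73- and 1.51-fold. ULK1 was higher with siE2 than with siE1 by 0.19 (SE 0.0651, edgeR adjusted p = 0.020) and than with siE3, where the siE3 minus siE2 difference was -0.20 (SE 0.0655, edgeR adjusted p = 0.018). The siE2 against siE1 call was lost without siE1 replicate 1, siE2 replicate 1 or siE2 replicate 2 (edgeR adjusted p = 0.13, 0.068 and 0.088) and with the DESeq2 Wald test (adjusted p = 0.059). The siE3 against siE2 call was lost without siE2 replicate 1, siE2 replicate 2 or siE3 replicate 2 (edgeR adjusted p = 0.064, 0.087 and 0.19). Between siE3 and siE1 the difference was -0.011 (95% interval -0.15 to 0.13).

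BECN1, the scaffold of the lipid kinase complex, fell with siE2 alone among the comparisons with siC. Its levels were 125 and 123 CPM under siC, 122 and 124 under siE1, 104 and 110.0 under siE2 and 125 and 120.0 under siE3. The siE2 libraries were the lowest of the 8 and the other groups overlapped. The siE2 change was -0.21 (SE 0.0484, edgeR adjusted p = 0.0017). With siE1 the change was -0.0074 (95% interval -0.11 to 0.095) and with siE3 -0.014 (95% interval -0.12 to 0.089). The siE2 minus siE1 difference was -0.20 (SE 0.0482, edgeR adjusted p = 0.0022), and the siE3 minus siE2 difference was 0.20 (SE 0.0484, edgeR adjusted p = 0.0035), which was not called without siE2 replicate 1 (edgeR adjusted p = 0.051).

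WIPI1, which binds the lipid that the BECN1 complex makes, rose with siE2. It stood at 37.7 and 36.7 CPM under siC, 38.6 and 37.9 under siE1, 55.3 and 50.7 under siE2 and 40.7 and 38.9 under siE3. The siE2 libraries lay above all the others, and the remaining 6 lay between 36.7 and 40.7 CPM. The siE2 change was 0.51 (SE 0.0645, edgeR adjusted p = 7.2e-06), or 1.42-fold. The changes with siE1 (0.040, 95% interval -0.10 to 0.18) and siE3 (0.098, 95% interval -0.043 to 0.24) were not called. The rise in the average of the 3 siRNAs (0.22, edgeR adjusted p = 0.0036) was not called without siC replicate 2 (edgeR adjusted p = 0.054). WIPI1 was higher with siE2 than with siE1 by 0.47 (SE 0.0640, edgeR adjusted p = 1.5e-05), and the siE3 minus siE2 difference was -0.41 (SE 0.0641, edgeR adjusted p = 7.9e-05).

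The 3 conjugation genes did not move as a group: ATG12 rose with siE1 and siE2, ATG5 fell with all 3 siRNAs and ATG7 fell with siE2. ATG5, the acceptor of ATG12, was at 94.7 and 92.8 CPM under siC, 77.2 and 75.0 under siE1, 86.1 and 85.4 under siE2 and 81.8 and 80.6 under siE3. All 6 siRNA libraries lay below both siC libraries, as in 15.4% of all genes tested, and no 2 groups overlapped. ATG5 changed by -0.30 (SE 0.0492, edgeR adjusted p = 1.1e-04) with siE1, by -0.13 (SE 0.0489, edgeR adjusted p = 0.036) with siE2 and by -0.21 (SE 0.0492, edgeR adjusted p = 0.0032) with siE3. The siE2 call was lost under 9 of 16 alternatives, among them the removal of either siC or either siE2 library (edgeR adjusted p = 0.15, 0.076, 0.099 and 0.13) and the replicate number as a block (0.054). ATG5 was higher with siE2 than with siE1 by 0.17 (SE 0.0494, edgeR adjusted p = 0.0074), a call lost without siE1 replicate 2 or siE2 replicate 1 (edgeR adjusted p = 0.069 and 0.055).

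ATG7, the activating enzyme of both conjugation reactions, was at 59.7 and 62.6 CPM under siC, 54.4 and 54.7 under siE1, 43.2 and 48.2 under siE2 and 62.4 and 55.6 under siE3. The siE2 libraries were the lowest, and the siE3 libraries overlapped those of siC. ATG7 changed by -0.42 (SE 0.0704, edgeR adjusted p = 1.2e-04) with siE2, to 0.748 of the control level. With siE1 both libraries lay below siC, but the change of -0.16 was not called (edgeR adjusted p = 0.060), and it was without a filter on low counts, with siE1 and siC fitted alone and without either siE3 library (edgeR adjusted p = 0.047, 0.034, 0.037 and 0.037). With siE3 the change was -0.052 (95% interval -0.20 to 0.096). In the average ATG7 fell (-0.21, edgeR adjusted p = 0.0053), which was not called without siC replicate 2 (edgeR adjusted p = 0.083). The siE2 minus siE1 difference was -0.25 (SE 0.0707, edgeR adjusted p = 0.0062; 0.082 without siE2 replicate 1), and the siE3 minus siE2 difference 0.37 (SE 0.0706, edgeR adjusted p = 5.2e-04).

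ATG12, the ubiquitin-like protein joined to ATG5, was at 46.8 and 49.2 CPM under siC, 58.6 and 57.7 under siE1, 65.0 and 62.4 under siE2 and 49.1 and 53.8 under siE3. The siE1 and siE2 libraries lay above both siC libraries, and those of siE3 overlapped them. The changes were 0.28 (SE 0.0622, edgeR adjusted p = 0.0017) with siE1 and 0.41 (SE 0.0620, edgeR adjusted p = 4.5e-05) with siE2. With siE3 the change was 0.10 (95% interval -0.033 to 0.24). The siE3 minus siE2 difference was -0.31 (SE 0.0616, edgeR adjusted p = 7.5e-04). Between siE3 and siE1 the difference of -0.17 (edgeR adjusted p = 0.029) was lost without siE1 replicate 1, siE1 replicate 2 or siE3 replicate 1 (edgeR adjusted p = 0.12, 0.084 and 0.23) and with the DESeq2 Wald test (adjusted p = 0.067).

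Among the Atg8 genes, which encode the lipid-anchored proteins of the autophagosome membrane, MAP1LC3B and GABARAPL1 both rose with siE1, and beside it MAP1LC3B rose with siE3 and GABARAPL1 with siE2. MAP1LC3B, the gene of the widely used marker LC3B, was at 80.2 and 78.2 CPM under siC, 111 and 106 under siE1, 82.0 and 83.1 under siE2 and 104 and 113 under siE3. The siE1 and siE3 libraries formed a high set, and those of siE2 lay just above siC. MAP1LC3B changed by 0.45 (SE 0.0539, edgeR adjusted p = 5.2e-06) with siE1 and by 0.45 (SE 0.0541, edgeR adjusted p = 8.1e-06) with siE3, which is 1.37-fold in both. With siE2 the change was 0.060 (95% interval -0.057 to 0.18). The siE2 minus siE1 difference was -0.39 (SE 0.0536, edgeR adjusted p = 1.5e-05) and the siE3 minus siE2 difference 0.39 (SE 0.0538, edgeR adjusted p = 2.5e-05). Between siE3 and siE1 it was -0.0041 (95% interval -0.12 to 0.11).

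GABARAPL1 was at 13.7 and 14.4 CPM under siC, 22.1 and 21.6 under siE1, 17.8 and 16.8 under siE2 and 16.3 and 14.1 under siE3. The siE1 libraries were the highest, the siE2 libraries lay between, and those of siE3 overlapped siC. The changes were 0.64 (SE 0.0928, edgeR adjusted p = 3.8e-05) with siE1, 0.30 (SE 0.0956, edgeR adjusted p = 0.014) with siE2 and 0.11 (95% interval -0.097 to 0.32) with siE3. The siE2 call was lost without siC replicate 1 or siE2 replicate 1 (edgeR adjusted p = 0.082 and 0.095). The siE3 minus siE1 difference was -0.53 (SE 0.0919, edgeR adjusted p = 2.3e-04) and the siE2 minus siE1 difference -0.34 (SE 0.0900, edgeR adjusted p = 0.0047). The siE3 minus siE2 difference of -0.19 was not called (edgeR adjusted p = 0.11), and was without siE3 replicate 1 (edgeR adjusted p = 0.040). Its near copy GABARAPL3, with which it could share reads, had only 14 to 20 counts per library and overlapped between groups.

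GABARAPL2 had the smallest average change of the 7 members that rose in the average. It was at 47.6 and 47.9 CPM under siC, 54.2 and 54.4 under siE1, 49.98 and 55.2 under siE2 and 52.0 and 48.5 under siE3. All 6 siRNA libraries lay above both siC libraries, as in 15.1% of all genes tested. The siE1 change was 0.18 (SE 0.0640, edgeR adjusted p = 0.025), and those with siE2 (0.14, edgeR adjusted p = 0.080) and siE3 (0.073, edgeR adjusted p = 0.40) were not called. The siE2 change was called under 3 of 16 alternatives, which were library size only, the stricter filter and the removal of siE2 replicate 1 (edgeR adjusted p = 0.031, 0.048 and 0.035). The siE1 call was lost without any 1 of the siC or siE1 libraries (edgeR adjusted p = 0.100, 0.087, 0.082 and 0.10) and with the DESeq2 Wald test (adjusted p = 0.064). The average change of 0.13 (edgeR adjusted p = 0.049) was lost under 11 of 15 alternatives, among them the replicate block (edgeR adjusted p = 0.074) and the removal of siC replicate 1 or 2, siE1 replicate 1 or 2, siE2 replicate 2 or siE3 replicate 1 (edgeR adjusted p = 0.074 to 0.19). Between siRNAs 0 of 3 differences in GABARAPL2 were called.

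SQSTM1, the cargo receptor p62, was higher with each siRNA. Its levels were 339 and 372 CPM under siC, 516 and 464 under siE1, 569 and 509 under siE2 and 540.4 and 578 under siE3. All 6 siRNA libraries lay above both siC libraries, as in 15.1% of all genes tested, and the siE1 and siE2 libraries overlapped. The changes were 0.46 (SE 0.0635, edgeR adjusted p = 2.2e-05) with siE1, 0.60 (SE 0.0636, edgeR adjusted p = 1.1e-06) with siE2 and 0.65 (SE 0.0636, edgeR adjusted p = 9.2e-07) with siE3, or 1.38-, 1.52- and 1.57-fold. SQSTM1 was higher with siE3 than with siE1 by 0.19 (SE 0.0630, edgeR adjusted p = 0.021), which was lost without siE1 replicate 2 or siE3 replicate 2 (edgeR adjusted p = 0.22 and 0.13). The siE2 minus siE1 difference of 0.14 was not called (edgeR adjusted p = 0.072), and was under 5 of 16 alternatives. These were library size only, no filter, only the groups compared, and the removal of siE1 replicate 1 or siE2 replicate 2 (edgeR adjusted p = 0.020, 0.018, 0.041, 0.022 and 0.020). Between siE3 and siE2 the difference was 0.052 (95% interval -0.082 to 0.19).

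**Figure D2:**
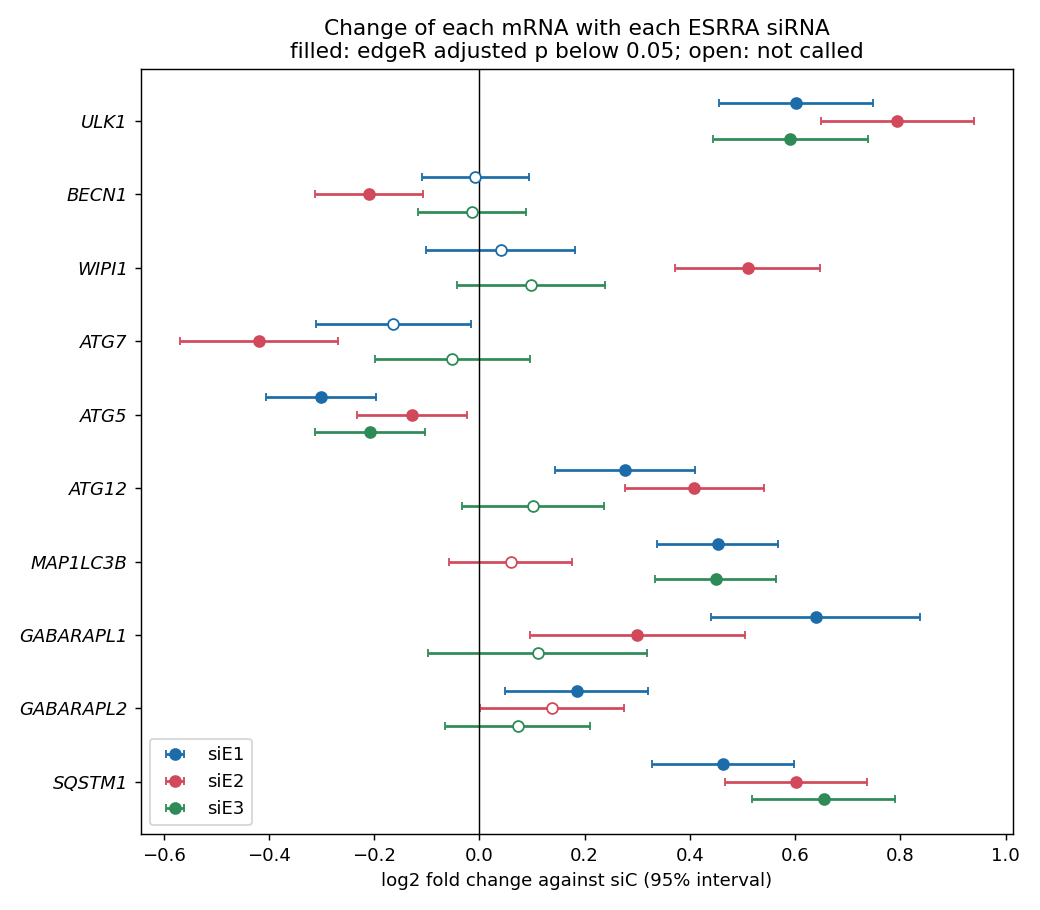
Log2 fold change of each core autophagy mRNA against siC (horizontal axis, points with 95% intervals from the edgeR fit) for siE1, siE2 and siE3; filled points have an adjusted p below 0.05. ULK1 and SQSTM1 are filled and right of 0 for all 3 siRNAs, ATG5 is filled and left of 0 for all 3, and the siE2 point stands apart from the other two for BECN1, WIPI1 and MAP1LC3B.

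Over the 10 members, 16 of 30 differences between siRNAs were called, and 9 of 10 members had at least 1, as 75.2% of all genes had. Between siE2 and siE1, 3 members were higher with siE2 and 4 lower, where 28.6% and 28.5% of all genes were (57.1% together). Between siE3 and siE2, 3 were higher with siE3 and 3 lower, against 25.0% and 23.4% (48.5%). Between siE3 and siE1, 1 was higher with siE3 and 2 lower, against 25.4% and 23.3% (48.7%). For MAP1LC3B, ULK1, BECN1, ATG7 and WIPI1, siE2 was called against both other siRNAs. The share of all genes with both calls was not counted, and each call alone was common (57.1% and 48.5%). Under some alternatives both of these calls were lost for ULK1, and a single one for BECN1 and for ATG7. ESRRA itself was lower with siE2 than with siE1 (log2 difference -0.37, SE 0.108, edgeR adjusted p = 0.0092), and the siE3 minus siE2 difference in ESRRA was 0.065 (95% interval -0.18 to 0.31). Across the 8 libraries, which fall into 4 groups, log2 CPM of BECN1 had a Pearson r of -0.96 with WIPI1 and of 0.93 with ATG7, and ULK1 had 0.87 with SQSTM1. These values describe the same siRNA groups and carry no test.

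For 8 of the gene pairs formed by a member and a gene on the opposite strand that shares exon bases with it in GENCODE v29, the partner was tested too. The sources used here do not say whether reads were counted by strand, so those of the shared bases could belong to either gene, and their part in the results was not tested. These pairs were looked up after the members' values had been seen. FBXO31, a subunit of a ubiquitin ligase, overlaps MAP1LC3B by 150 exon bases at the FBXO31 5′ end and moved opposite to it. FBXO31 was at 41.1 and 42.2 CPM under siC, 26.4 and 24.4 under siE1, 37.6 and 37.7 under siE2 and 24.7 and 25.4 under siE3. It fell in the same 2 groups in which MAP1LC3B rose, with log2 changes of -0.72 and -0.73 for siE1 and siE3 (edgeR adjusted p = 4.7e-07 and 6.0e-07) and -0.14 for siE2 (edgeR adjusted p = 0.070).

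MGAT4B, a Golgi glycosyltransferase gene, shares 105 exon bases with the 5′ end of the whole annotated SQSTM1 gene span. That end need not be the start of the principal transcript, since RefSeq has other SQSTM1 starts 13750 and 14366 bases from it. MGAT4B rose with SQSTM1, by 0.82, 0.95 and 0.97 with siE1, siE2 and siE3 (edgeR adjusted p = 5.5e-09, 8.7e-10 and 1.5e-09). C5orf45 (now MRNIP), which shares 1582 bases with the 3′ part of SQSTM1, changed by -0.52, 0.070 and -0.76 (edgeR adjusted p = 0.048, 0.78 and 0.010), from 3.52 ± 0.439 CPM in siC. ARSG, a lysosomal sulfatase gene, shares 828 bases with the 3′ end of WIPI1. It had 3.15 and 3.81 CPM under siC, 1.22 and 1.97 under siE1, 6.40 and 5.26 under siE2 and 3.52 and 3.63 under siE3. ARSG rose with siE2 as WIPI1 did (0.74, edgeR adjusted p = 0.0029) but fell with siE1 (-1.10, edgeR adjusted p = 9.3e-04). VGLL4, which shares 1596 bases with the 3′ end of ATG7, fell with siE1 (-0.27, edgeR adjusted p = 0.028) and rose with siE2 (0.29, edgeR adjusted p = 0.014), where ATG7 fell, and with siE3 (0.72, edgeR adjusted p = 1.1e-05). PSME3, a proteasome activator gene beside BECN1 with 300 shared bases, fell with siE1, siE2 and siE3 (-0.18, -0.57 and -0.43). AP3S1, which shares 378 bases with the 5′ end of ATG12, was called with 0 of 3 siRNAs (0.013, 0.051 and 0.026). CNTD1, which shares 795 bases with BECN1, was also called with 0 of 3 (0.11, 0.035 and -0.73). With only 12 to 27 counts per library, CNTD1 was too low for these values to be precise.

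**Figure D3:**
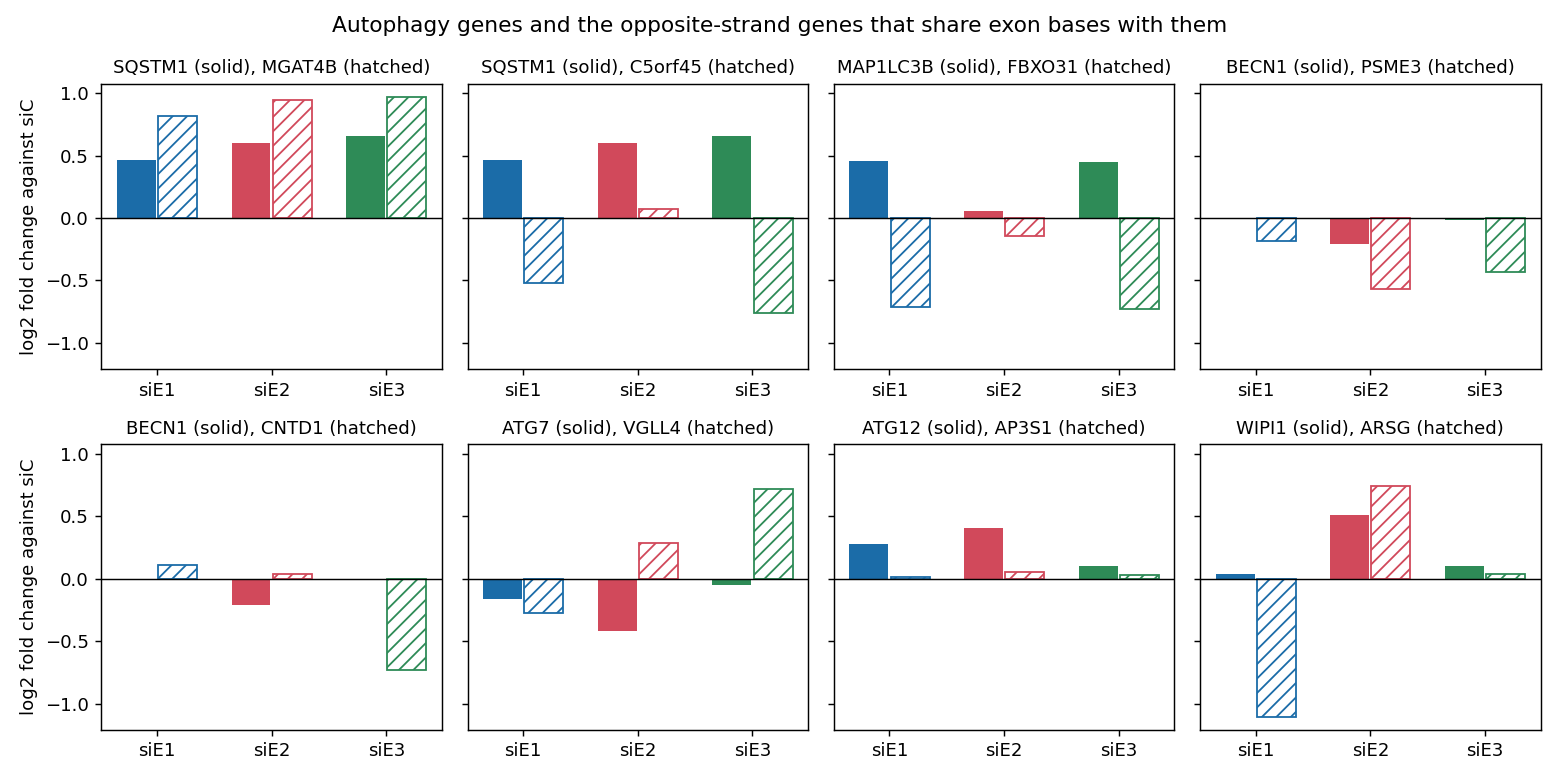
Log2 fold changes against siC (vertical axis) of an autophagy gene (solid bars) and of the opposite-strand gene that shares exon bases with it (hatched bars), for siE1, siE2 and siE3. FBXO31 falls by 0.72 and 0.73 on the log2 scale with siE1 and siE3, where MAP1LC3B rises, and MGAT4B rises with SQSTM1 under all 3 siRNAs.

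Of 112 further genes of the pathway, in 10 lists by role, 110 were tested, and in the average of the 3 siRNAs 26 rose and 31 fell, near the 23.4% and 27.7% of all genes. For siE1, 22 rose and 34 fell (20% and 30.9%, against 24.5% and 25.8% of all genes). For siE2, 40 rose and 31 fell (36.4% and 28.2%, against 27.9% and 28.5%), and for siE3 24 rose and 25 fell (21.8% and 22.7%, against 21.3% and 20.8%). Their medians were -0.029, 0.078 and 0.027 with siE1, siE2 and siE3 and -0.023 in the average, beside -0.0085, 0.0056, -0.0018 and -0.013 for all genes.

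In the average, 23.4% of all genes rose and 27.7% fell. In the initiation list, which holds the partners of ULK1 and the lipid transfer proteins, 1 of 7 rose and 3 fell in the average (median 0.053, above 0 although more were called lower). The scaffold RB1CC1 rose by 0.22 (SE 0.0360), while ATG2A, a lipid transfer protein (-0.33), the scramblase ATG9A (-0.33) and C12orf44 (ATG101, -0.22) fell. The C12orf44 call was lost without siC replicate 2 (edgeR adjusted p = 0.072). ATG9A was at -0.81 with siE1 and 0.028 with siE3, the latter not called, and RB1CC1 with siE3 (0.084) and C12orf44 with siE1 (-0.063) were not called. In the list named PI3K complex, after the lipid kinase complex of BECN1, 2 of 11 genes rose and 0 fell. Its median was -0.067, below 0 although both calls were rises. Not every gene of this list is a subunit of that complex, and TMEM41B is not. TMEM41B was at 0.28 and SH3GLB1 at 0.17, the latter not called with siE1 (0.050). Of the 3 other WIPI family genes, WDR45L (now WDR45B, 0.42) and WDR45 (0.30) rose and WIPI2 (-0.12) fell. The WIPI2 call was lost without siC replicate 1 (edgeR adjusted p = 0.18). WDR45 was not called with siE2 (0.044). WIPI2 fell with siE2 (-0.41, edgeR adjusted p = 3.7e-06), where WIPI1 rose, and was not called with siE1 or siE3 (0.086 and -0.053).

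Of the other conjugation genes, 5 of 8 fell and 1 rose in the average (median -0.21), where 27.7% and 23.4% of all genes did. With each siRNA 4 fell, not the same 4 throughout, and 1 rose. Among all genes 25.8%, 28.5% and 20.8% fell with siE1, siE2 and siE3, and 24.5%, 27.9% and 21.3% rose. ATG3, which passes Atg8 proteins to lipid, fell with siE1, siE2 and siE3 (log2 changes -0.59, -0.28 and -0.17). The protease genes ATG4A (-0.34) and ATG4B (-0.23) fell in the average, and ATG4B with siE1 was not called (-0.068). ATG16L1, the partner of the ATG12 and ATG5 conjugate, was the exception. It went from 36.6 ± 0.820 CPM under siC to 57.1 ± 2.11, 51.1 ± 2.46 and 61.4 ± 1.07 CPM, an average rise of 0.62 (SE 0.0525, edgeR adjusted p = 1.5e-07).

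In the rest of the Atg8 family, GABARAP rose by 0.18 in the average (SE 0.0349) and MAP1LC3B2, a near copy of MAP1LC3B, by 0.22 (SE 0.0716), a call lost without siC replicate 1 (edgeR adjusted p = 0.17) and with the DESeq2 Wald test (adjusted p = 0.066). MAP1LC3B2 had 353 to 517 counts per library, and the sources used here do not say how reads that match both copies were counted. GENCODE v29 also lists 1 pseudogene each named after SQSTM1, MAP1LC3B, BECN1 and ATG12. MAP1LC3A and MAP1LC3C were not called in the average (edgeR adjusted p = 0.34 and 0.45). With siE2 alone, 3 of the 4 genes of this list rose, where 27.9% of all genes did. These were GABARAP (0.10, edgeR adjusted p = 0.049, just under the threshold), MAP1LC3A and MAP1LC3C. MAP1LC3B2 was not called (0.15, edgeR adjusted p = 0.16). From siC to siE2, MAP1LC3A went from 1.73 ± 0.0770 to 2.63 ± 0.668 CPM and MAP1LC3C from 0.637 ± 0.190 to 1.73 ± 0.125 CPM, all low levels.

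Of the cargo receptors other than SQSTM1, 3 of 15 rose and 5 fell in the average (median 0.060, above 0 although more were called lower). Among all genes 23.4% rose and 27.7% fell. OPTN rose with each siRNA (0.36, 0.61 and 0.51). TAX1BP1 fell with siE1, from 232 ± 4.57 to 102 ± 3.21 CPM (log2 change -1.19, SE 0.0506, edgeR adjusted p = 9.1e-11), and rose with siE2 (0.23, edgeR adjusted p = 8.4e-04), and its average over the 3 siRNAs was -0.29. CALCOCO2 fell in the average (-0.21), with -0.052, -0.12 and -0.47 for siE1, siE2 and siE3, the first not called. The endoplasmic reticulum receptor TEX264 fell in the average (-0.24), with -0.36, 0.025 and -0.38, the siE2 value not called. Among genes of fusion with the lysosome, 5 of 14 rose and 2 fell (median 0.067), beside the same shares of all genes. The membrane fusion proteins SNAP29 (0.26), YKT6 (0.23) and VAMP8 (0.18) rose in the average, with VAMP8 at -0.045 under siE2 and YKT6 at 0.13 under siE3, both not called. STX17, the syntaxin of the autophagosome, was at -0.74 (edgeR adjusted p = 1.3e-07), 0.043 and -0.083 with siE1, siE2 and siE3, the last pair not called.

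Of the transcription factors, 3 of 11 rose and 3 fell in the average (median 0.049), where 23.4% and 27.7% of all genes did. TFE3, a relative of TFEB, rose by 0.20 and CEBPB by 0.53, and FOXO1 (-0.31) and NFE2L2, which encodes NRF2 (-0.15), fell. The FOXO1 call was lost without siC replicate 1 and that of NFE2L2 without siC replicate 2 (edgeR adjusted p = 0.19 and 0.078). TFE3 and FOXO1 were not called with siE3 (0.038 and -0.080), nor NFE2L2 with siE1 (-0.053). TFEB mRNA was at 4.03 ± 1.34 CPM in siC and was not called in the average (-0.16, 95% interval -0.61 to 0.29). In the list around the kinases mTOR and AMPK, 5 of 27 rose and 10 fell (median -0.065), beside the same shares of all genes. The mTOR inhibitor gene DDIT4 went from 23.1 ± 4.75 CPM to 46.9 ± 9.86, 92.3 ± 20.9 and 47.0 ± 9.83 CPM, an average rise of 1.34 on the log2 scale (SE 0.156). FLCN (0.57), the GTPase gene RRAGA (0.33) and AKT1S1 (0.29) rose as well. Genes were named by smallest p, and the 10 that fell, the larger number, had larger p and are not named.

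Of the remaining regulators, 2 of 10 rose and 2 fell in the average (median -0.049), where 23.4% and 27.7% of all genes did. TP53INP1, which can bind Atg8 proteins, rose by 1.93 (SE 0.113) and the lysosomal membrane gene DRAM1 by 0.76 (SE 0.0566). TP53INP1 stood at 3.50 ± 0.219 CPM in siC and its rise was uneven, at 0.96, 2.89 and 1.95 with siE1, siE2 and siE3. For DRAM1 the values were 0.80, 0.73 and 0.76. BCL2L1, whose product binds BECN1, fell with siE1, siE2 and siE3 (log2 changes -1.59, -0.51 and -0.49). MCL1, which also binds BECN1, fell in the average (-0.088, edgeR adjusted p = 0.047), and this was lost under 9 of 15 alternatives, including the removal of siC replicate 2 (edgeR adjusted p = 0.41), siE1 replicate 2 (0.097), siE2 replicate 1 (0.082), siE2 replicate 2 (0.072) or siE3 replicate 1 (0.056).

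**Figure D4:**
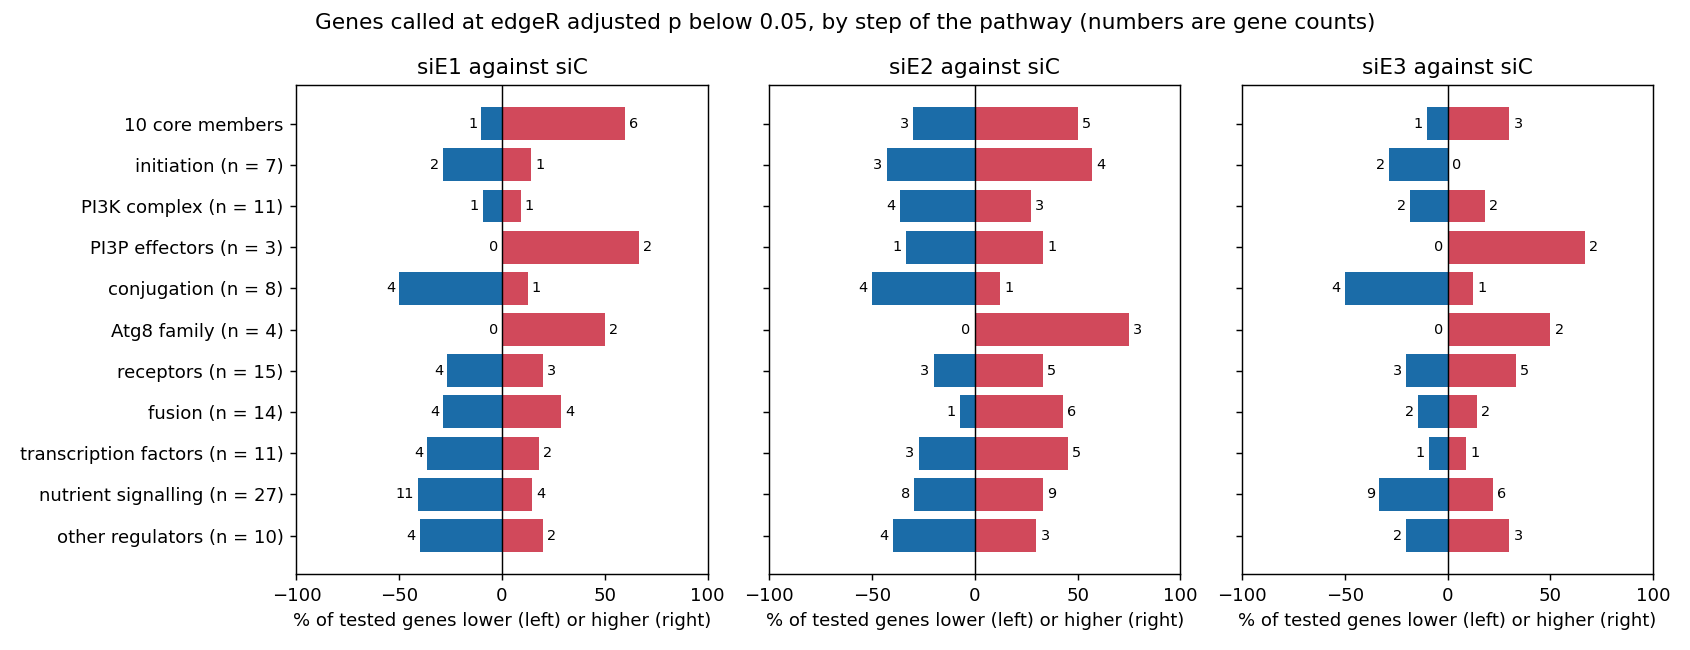
Share of tested genes called lower (left) or higher (right) against siC at an edgeR adjusted p below 0.05, in percent, for the 10 core members and for 10 lists of other autophagy genes; numbers beside bars are gene counts. The other conjugation genes have 4 lower (not the same 4 throughout) and 1 higher with each siRNA, and the core members have 6, 5 and 3 higher. Of all genes tested, 25.8%, 28.5% and 20.8% were lower and 24.5%, 27.9% and 21.3% higher with siE1, siE2 and siE3.

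Over the 8 libraries, the genes whose log2 CPM followed ULK1 most closely among 10501 with at least 5 CPM were PTK6 (r = 0.995) and LGALS3BP (r = 0.995). SQSTM1 was followed by GNA13 (r = 0.993) and SEPHS1 (r = 0.987). MAP1LC3B was followed by DCUN1D1 (r = 0.992) and by the kinase gene LATS2 (r = 0.991), which was at 0.84, 0.11 and 0.81 with siE1, siE2 and siE3. With 8 libraries in 4 groups, such values describe the group means.

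In the authors' deposited table, 6 members had an adjusted p below 0.05 with siE1, 6 with siE2 and 4 with siE3, and all of these were called here too. The 3 calls made here and not there were GABARAPL2 with siE1 (adjusted p = 0.065 in the authors' deposited table), GABARAPL1 with siE2 (0.068) and ATG5 with siE2 (0.12). The authors' deposited table gave folds of 1.52, 1.72 and 1.51 for ULK1 and of 1.38, 1.51 and 1.58 for SQSTM1.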

How the data were processed

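RNA from MDA-MB-231 cells was sequenced after transfection with siC, siE1, siE2 or siE3, in 2 libraries per siRNA, and groups came from the sample titles. TopHat 1.3.3, HTSeq and DESeq, and the build hg19, are listed per the submitters' processing notes, with no role. The sources used here do not give the annotation, strand setting or filters. The authors' deposited table holds raw counts per gene symbol and, for each siRNA against siC, a fold (linear ratio) and an adjusted p-value, per the file headers.

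Of 23368 symbols, filterByExpr of edgeR 4.0.16 kept 13395. TMM factors were 0.980 to 1.02. Its quasi-likelihood model (glmQLFit, then glmQLFTest) took all 8 libraries together with a mean per siRNA (4 residual degrees of freedom, biological coefficient of variation 4.08%), with Benjamini-Hochberg adjustment over all genes tested and a threshold of 0.05. The SE was taken from the fold change and its F statistic, and 95% intervals use the fit's degrees of freedom. R was 4.3.3, with limma 3.58.1 and DESeq2 1.42.0 for alternatives (scaling, filter, test, samples fitted, replicate block, each library left out) and Python 3.11.15 and matplotlib 3.10.9 for plots. The test was also run on counts simulated from its own fitted model, with known changes in a small part of the genes. Far more genes were called in these data, so that run checks the code and not the calls. The 2 libraries of each group differed by more than sampling noise (chi-square per degree of freedom 3.11 to 5.12 over 12364 genes).

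The members and the 10 pathway lists were chosen with earlier results of these data known. Named were all members, up to 4 genes per list with the smallest p among those called in the average, and the 2 genes most like each of 3 members. Genes named beyond that rule (TFEB, MAP1LC3A, MAP1LC3C, GABARAPL3 and opposite-strand partners) were chosen after their values were seen. The lists matched 112 of 112 entries by symbol or older symbol, and promoter windows matched all 10 members.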

Additional observations from a re-analysis of the deposited data

Results flagged for a closer look

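Differences between siRNAs passed the test for 9 of the 10 members in at least 1 of 3 comparisons, as for 75.2% of all genes tested, and are given as log2 values. The siE2 minus siE1 difference passed for MAP1LC3B (-0.39), GABARAPL1 (-0.34), ULK1 (0.19), BECN1 (-0.20), ATG5 (0.17), ATG7 (-0.25) and WIPI1 (0.47). For the siE3 minus siE1 difference these were SQSTM1 (0.19), GABARAPL1 (-0.53) and ATG12 (-0.17). The siE3 minus siE2 difference passed for MAP1LC3B (0.39), ULK1 (-0.20), BECN1 (0.20), ATG7 (0.37), ATG12 (-0.31) and WIPI1 (-0.41). All 3 siRNAs were made against the same mRNA, and what sets them apart was not tested.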

How the results depend on the processing

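Of 19 calls of a member against siC, 16 kept their direction and call under all 16 alternatives, and GABARAPL2 with siE1, GABARAPL1 with siE2 and ATG5 with siE2 did not. Against siC, members higher numbered 5 to 6, 4 to 5 and 3 with siE1, siE2 and siE3 when a library was left out, and 5 to 7 in the average. Members lower numbered 1 to 2, 2 to 3, 1 and 1 to 2. Between siE2 and siE1 they were 1 to 3 higher and 3 to 4 lower, between siE3 and siE1 0 to 1 and 1 to 2, and between siE3 and siE2 2 to 3 and 2 to 4. Members lower with siE1 were 2 without a filter and 2 with only the groups compared. With library size only, 5 were higher with siE2 than with siE1, and with the DESeq2 Wald test 1 was lower with siE3 than with siE1. The cause was not tested. A group with 1 library left is assumed to vary like the others.

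Each change of sign was in a value not called on either side. BECN1 with siE1 was 0.0013 with library size only, 0.0017 with only the groups compared, 0.0071 with a stricter filter (at least 1 CPM on average and 50 counts) and -0.021 to 0.0020 with a library left out. The other ranges with a library left out were -0.14 to 0.030 for ATG7 and -0.045 to 0.017 for BECN1 with siE3, -0.12 to 0.015 for GABARAPL2 between siE2 and siE1, -0.035 to 0.027, -0.063 to 0.057 and -0.087 to 0.068 for BECN1, MAP1LC3B and ULK1 between siE3 and siE1, and -0.13 to 0.0082 and -0.025 to 0.14 for GABARAPL2 and SQSTM1 between siE3 and siE2.

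Replicate numbers are shared by the groups. Deviations of same-numbered libraries correlated at -0.18 to 0.11 across genes, which shows no common pairing by number. The correlation was 0.040 between siC and siE3 and 0.11 between siE1 and siE2, and negative for every other pair of groups. With 2 libraries per group these values cannot tell whether some libraries were paired. A pairing across different numbers was not tested, and a block by number would not take it up. With the replicate block, siE1, siE2 and siE3 called 3098, 3568 and 2657 genes higher, within 1.5 times of the fit without it, and among the members the block ended only the calls of ATG5 with siE2 and GABARAPL2 in the average. For the average, a fit of only the groups compared is the fit of all groups and gave no separate value.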
